A study of Homo sapiens with 12 samples.

Results

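The expression of 10 genes of the NF-kB pathway was followed across 12 arrays of MM.1S cells, a human multiple myeloma line. These were NFKBIA (ENSG00000100906_at), TNFAIP3 (ENSG00000118503_at), NFKB1 (ENSG00000109320_at), NFKB2 (ENSG00000077150_at), RELB (ENSG00000104856_at), BIRC3 (ENSG00000023445_at), CD40 (ENSG00000101017_at), TRAF1 (ENSG00000056558_at), NFKBIE (ENSG00000146232_at) and TRAF3 (ENSG00000131323_at), chosen by these identifiers for their place in the pathway and making up 10 of the 17710 genes in the table. The choice was made with earlier results of these data known. The cells were left untreated (Control) or received PIM447, an inhibitor of the PIM kinases, at 100 nM for 24 h (PIM), pomalidomide at 200 nM plus dexamethasone at 5 nM for 15 h (Pd), or all 3 drugs at the same doses for 10 h (PIM-Pd). Each group held 3 arrays from 3 independent experiments, and per the labels viability in the 3 treated groups was 74 to 81%. Because each treatment had its own exposure time, drug and time cannot be told apart in any comparison below. All values come from 1 cell line, and a change of RNA in every cell and a change in the share of responding cells cannot be told apart in such pooled RNA.

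NF-kB is a family of dimeric transcription factors. NFKB1 and NFKB2 encode the precursors of the p50 and p52 subunits, and RELB encodes the partner of p52 in the non-canonical branch. In resting cells the inhibitors IkBα (NFKBIA) and IkBε (NFKBIE) hold the dimers in the cytoplasm until they are phosphorylated and degraded. Active NF-kB raises transcription of its own inhibitors and of TNFAIP3, which encodes the ubiquitin-editing enzyme A20, so the pathway limits itself. CD40 is a TNF-family receptor that feeds both branches, TRAF1 and TRAF3 are adaptors beneath such receptors, and BIRC3 (cIAP2) is a ubiquitin ligase that works with TRAF proteins and counters cell death. Constitutive NF-kB activity is a known feature of many myelomas, and glucocorticoids such as dexamethasone are known to act on several NF-kB target genes.

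The upstream sequences of BIRC3, NFKBIA and TNFAIP3 are shown because these members carry the letters that NF-kB dimers recognise and are described in detail below. The search used the letters GGNNTTTCC on both strands, settled after the windows had been looked at, in windows of 300 bases (250 before and 50 after each start) from RefSeq, build GRCh38.p14. Of the 10 members, 7 had windows in that table (12 windows, as several genes have more than 1 start). All 7 of these (NFKBIA, TNFAIP3, NFKB1, NFKB2, BIRC3, TRAF1 and TRAF3) held at least 1 match in any window. Counted by window, 8 of the 12 held a match, and 6.26% of all 35116 windows did. With 1 more G required before these letters, 6 of the 7 members held a match in any window (not TRAF1). Counted by single window, 1.91% of all windows did, so these figures count different units. Because the letters were fitted to these windows, the members' matches are a description and nothing is read from their share. None of the 12 windows held the letters ACANNNTGT, the core of the glucocorticoid response element, found in 5.37% of all windows, which says only that these letters are not there. The 250 bases before the start are printed 5′ to 3′ on the strand of the gene, with each match in capitals, for BIRC3 (chr11:102317234-102317483, plus strand), NFKBIA (chr14:35404750-35404999, minus strand) and TNFAIP3 (chr6:137867009-137867258, plus strand).
BIRC3: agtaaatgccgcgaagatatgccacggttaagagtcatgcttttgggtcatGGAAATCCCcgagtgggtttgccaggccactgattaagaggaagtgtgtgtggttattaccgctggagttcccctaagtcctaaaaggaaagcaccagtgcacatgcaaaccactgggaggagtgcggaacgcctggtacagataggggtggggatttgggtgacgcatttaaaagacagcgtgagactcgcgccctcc
NFKBIA: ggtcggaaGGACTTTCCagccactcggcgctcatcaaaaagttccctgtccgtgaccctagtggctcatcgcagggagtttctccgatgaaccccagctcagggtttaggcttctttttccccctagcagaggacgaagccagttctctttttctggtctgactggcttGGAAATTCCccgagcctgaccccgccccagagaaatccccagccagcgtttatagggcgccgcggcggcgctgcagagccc
TNFAIP3: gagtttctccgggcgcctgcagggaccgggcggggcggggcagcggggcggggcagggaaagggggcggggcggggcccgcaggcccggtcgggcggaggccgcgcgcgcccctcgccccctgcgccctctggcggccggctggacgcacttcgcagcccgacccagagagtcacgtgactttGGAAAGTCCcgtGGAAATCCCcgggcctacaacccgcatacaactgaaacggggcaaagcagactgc
The BIRC3 match, at -199 to -191 from the start, reads GGGATTTCC on the opposite strand. NFKBIA has 1 match on the strand of the gene at -242 to -234 (GGACTTTCC) and 1 on the opposite strand at -81 to -73 (GGAATTTCC). TNFAIP3 has a pair on the opposite strand, GGACTTTCC at -67 to -59 and GGGATTTCC at -55 to -47. A match is a description of the letters and not of a bound site.

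The arrays were alike in scale, with medians of 4.81 to 4.89 on the log2 scale of the deposited values, and arrays of 1 group correlated at 0.987 to 0.993. Of the plasma cell markers, only IRF4, CD38 and SLAMF7 could be matched to identifiers, and all 3 lay above the upper quartile of the Control arrays (IRF4 10.07 ± 0.16, CD38 8.46 ± 0.08, SLAMF7 9.94 ± 0.17, SD, n = 3). The T cell marker CD3E had a Control mean below the array medians, at 4.63 ± 0.28 (SD, n = 3). Of 6 glucocorticoid-induced genes, 3 could be matched. Among them TSC22D3 was higher than in Control by 2.49 log2 units in Pd and by 2.82 in PIM-Pd (limma, adjusted p = 7.55e-06 and 1.42e-06), and it differed by -0.36 in PIM (adjusted p = 0.809). FKBP5, another such gene, was higher by 1.73 and 1.79 (adjusted p = 7.59e-05 and 3.7e-05), and KLF9 by 0.55 in PIM-Pd (adjusted p = 0.0278) with 0.32 in Pd (adjusted p = 0.284). The plasma cell factor IRF4 fell by 1.10 in Pd and by 1.12 in PIM-Pd (adjusted p = 0.000192 and 0.000118) while CD38 rose by 0.42 in PIM-Pd (adjusted p = 0.0463). SLAMF7 differed by -0.50 in Pd, with all Pd arrays below Control (adjusted p = 0.0839), and by -0.19 in PIM-Pd (adjusted p = 0.596). Their part in the results below was not tested. Identifiers of all these genes came from the tables of changed genes published with the study, so a gene the study did not call could not have been matched and these values are no independent check of the treatment.

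**Figure D1:**
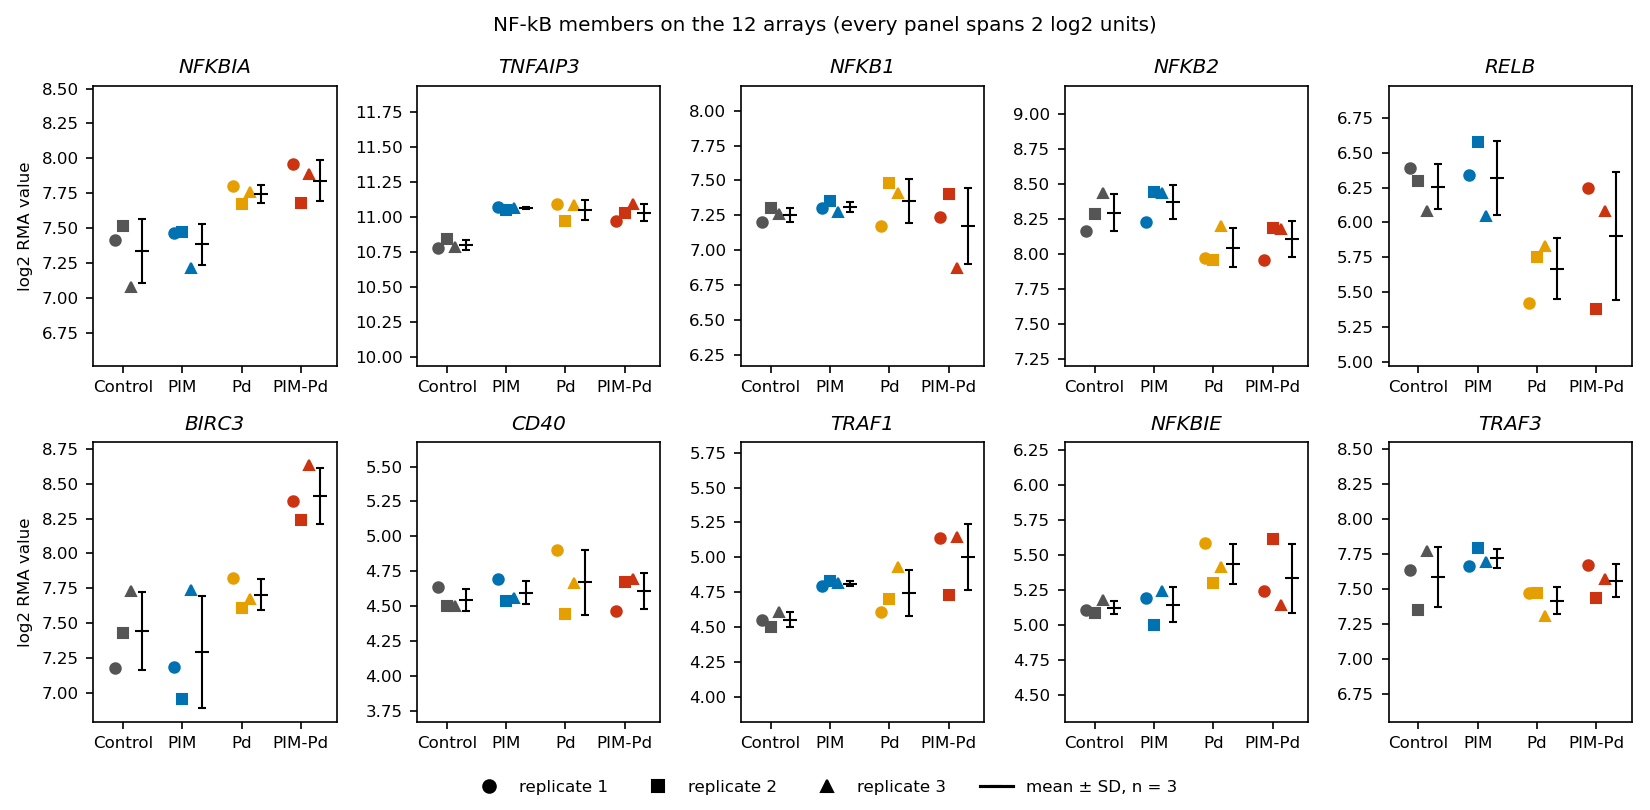
Log2 RMA values (y axis) of the 10 members on the 12 arrays, with the 4 groups on the x axis, 1 symbol per replicate number and the mean ± SD (n = 3) beside each group. Every panel spans 2 log2 units, so heights can be compared between panels as differences. The PIM-Pd arrays of BIRC3 (8.24 to 8.63) lie above all other BIRC3 arrays, and the TNFAIP3 arrays are the most tightly grouped.

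Across all 4 groups, BIRC3 and NFKBIA were the members that passed the F test (limma, adjusted p = 0.00449 and 0.0402), at a threshold of 0.05 that 8.16% of all genes passed. BIRC3 passed whichever of the 12 arrays was left out (adjusted p 0.000739 to 0.0297). NFKBIA passed in only 3 of these 12 fits (without replicate 2 of Control, PIM or PIM-Pd), with adjusted p values of 0.0367 to 0.0957. Without PIM-Pd replicate 2, RELB and TRAF1 passed as well (adjusted p = 0.0479 and 0.0391). When a whole replicate number was left out in all groups, BIRC3 did not pass without number 1 or 2 (adjusted p = 0.0977 and 0.0528). It passed without number 3 (0.0117). NFKBIA did not pass without number 1, 2 or 3 (0.287, 0.0696 and 0.412). The spread within groups differed widely between members. TNFAIP3 had a within-group SD of 0.049 log2 units, against a median of 0.170 over all genes. RELB and BIRC3 were the noisiest, with SDs of 0.297 and 0.269, and the other 7 members ranged from 0.130 to 0.162.

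In PIM-Pd, 3 members were called higher and none lower than in Control: BIRC3, NFKBIA and TRAF1 (limma, Benjamini-Hochberg adjusted p under 0.05 over all genes). In this comparison 9.44% of all genes were called, 4.42% as higher. The other 7 members lay between -0.35 (RELB) and 0.23 (TNFAIP3) log2 units from Control. At an unadjusted p under 0.05 there were 4 members, the 3 called and TNFAIP3, and 20.5% of all genes were at that level. No member was called when a 2-fold difference was also required, a rule that 1.44% of all genes met. The median difference of the 10 members was 0.14 log2 units, and that of all genes was 0.01.

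BIRC3 had the largest difference of the 10. Its log2 values in replicates 1, 2 and 3 were 7.18, 7.43 and 7.73 in Control, 7.19, 6.96 and 7.74 in PIM, 7.83, 7.61 and 7.68 in Pd, and 8.37, 8.24 and 8.63 in PIM-Pd. All 3 PIM-Pd arrays exceeded all 9 others, and the Pd arrays overlapped those of Control. How many genes had 1 group apart from all others was not counted. Between PIM-Pd and Control alone, 24.7% of all genes did not overlap. The mean in PIM-Pd was 0.97 log2 units above Control (SE 0.19, 1.96-fold, 95% interval 0.57 to 1.37, adjusted p = 0.004). Only 1.55% of genes had a larger difference in this comparison. The same-numbered arrays differed by 1.20, 0.81 and 0.90. Leaving out replicate number 1 in all groups took the difference to 0.85 and the adjusted p to 0.08. This was the only 1 of 21 alternatives in which the call was lost, over a range of 0.00105 to 0.08. Here and below, the 21 do not include the 2-fold rule, under which BIRC3 was not called against Control.

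For BIRC3 neither PIM nor Pd was called against Control. PIM and Control differed by -0.15 log2 units (95% interval -0.55 to 0.24, adjusted p = 0.928). Pd and Control differed by 0.26 (interval -0.14 to 0.66, adjusted p = 0.574). PIM-Pd was higher than PIM by 1.12 log2 units, or 2.17-fold (SE 0.19, adjusted p = 0.00215), which made BIRC3 the 1 member called in that comparison, where 5.66% of all genes were called, 2.95% as higher. It also met the 2-fold rule there, as 0.977% of all genes did. PIM-Pd and Pd differed by 0.71 (SE 0.19, interval 0.31 to 1.11), with all 3 PIM-Pd arrays above all 3 Pd arrays (14.5% of all genes did not overlap between these groups), but this did not pass after adjustment over all genes (unadjusted p = 0.00177, adjusted p = 0.236). Only 0.0791% of genes passed in that comparison. The departure of PIM-Pd from the sum of the PIM and Pd differences was 0.86 log2 units for BIRC3 (SE 0.26, interval 0.30 to 1.42), again short of the threshold (unadjusted p = 0.00526, adjusted p = 0.67), in a test that 0.0169% of genes passed.

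NFKBIA, the gene of the main feedback inhibitor, was called higher in PIM-Pd than in Control and read high in Pd as well. Its log2 values in replicates 1, 2 and 3 were 7.42, 7.51 and 7.08 in Control, 7.47, 7.48 and 7.21 in PIM, 7.80, 7.67 and 7.76 in Pd, and 7.96, 7.68 and 7.89 in PIM-Pd. The 6 arrays of Pd and PIM-Pd all lay above the 6 arrays of Control and PIM. The share of all genes with this pattern was not counted. Between PIM-Pd and Control alone, 24.7% of all genes did not overlap, and between Pd and Control also 24.7%. PIM-Pd exceeded Control by 0.51 log2 units (SE 0.13, 1.42-fold, adjusted p = 0.0246). The call was kept in 15 of 21 alternatives (adjusted p 0.0209 to 0.282), and it was lost without Control replicate 3 (0.38, adjusted p = 0.128), without PIM-Pd replicate 1 (0.45, 0.0894) or without PIM-Pd replicate 3 (0.48, 0.0783), without replicate number 1 or 3 in all groups (adjusted p = 0.172 and 0.282), and when only these 2 groups were fitted (0.0591). Control replicate 3, at 7.08, was the lowest NFKBIA array of the series.

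In Pd, NFKBIA was 0.41 log2 units above Control (SE 0.13, interval 0.13 to 0.69) with an adjusted p of 0.095, so the difference was not called. The PIM-Pd and Pd groups overlapped and differed by 0.10 (interval -0.18 to 0.38, adjusted p = 0.889). PIM-Pd was 0.46 above PIM (SE 0.13) with an adjusted p of 0.0582, and with the replicate number as a block the adjusted p was 0.0478, which adds NFKBIA to BIRC3 as a called member. PIM and Control differed by 0.05 (interval -0.23 to 0.33, adjusted p = 0.98).

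NFKBIE, the gene of another IkB protein, was not called in any comparison. Its arrays read 5.09 to 5.17 in Control, 5.00 to 5.24 in PIM, 5.30 to 5.59 in Pd and 5.14 to 5.61 in PIM-Pd. The Pd arrays lay wholly above Control, by 0.31 log2 units (SE 0.13, unadjusted p = 0.0321, adjusted p = 0.23), while the PIM-Pd arrays overlapped Control (0.21, SE 0.13, adjusted p = 0.433).

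TNFAIP3, the gene of A20, lay slightly above Control in all 3 treatments without being called. Its log2 values in replicates 1, 2 and 3 were 10.78, 10.84 and 10.78 in Control, 11.07, 11.05 and 11.06 in PIM, 11.09, 10.97 and 11.09 in Pd, and 10.97, 11.03 and 11.09 in PIM-Pd. All 9 treated arrays lay above all 3 Control arrays, a pattern that 1.26% of all genes showed, and the 3 treated groups overlapped one another. The differences from Control were 0.26 in PIM, 0.25 in Pd and 0.23 in PIM-Pd (SE 0.10 each, 1.20-, 1.19- and 1.17-fold). The same 3 Control arrays enter each of them. None passed after adjustment (adjusted p = 0.701, 0.176 and 0.177; unadjusted p = 0.0151, 0.0202 and 0.03), and none passed in any of 21 alternatives. limma draws each gene's variance towards that of the other genes, which for TNFAIP3 means a larger SE than its own arrays would give.

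**Figure D2:**
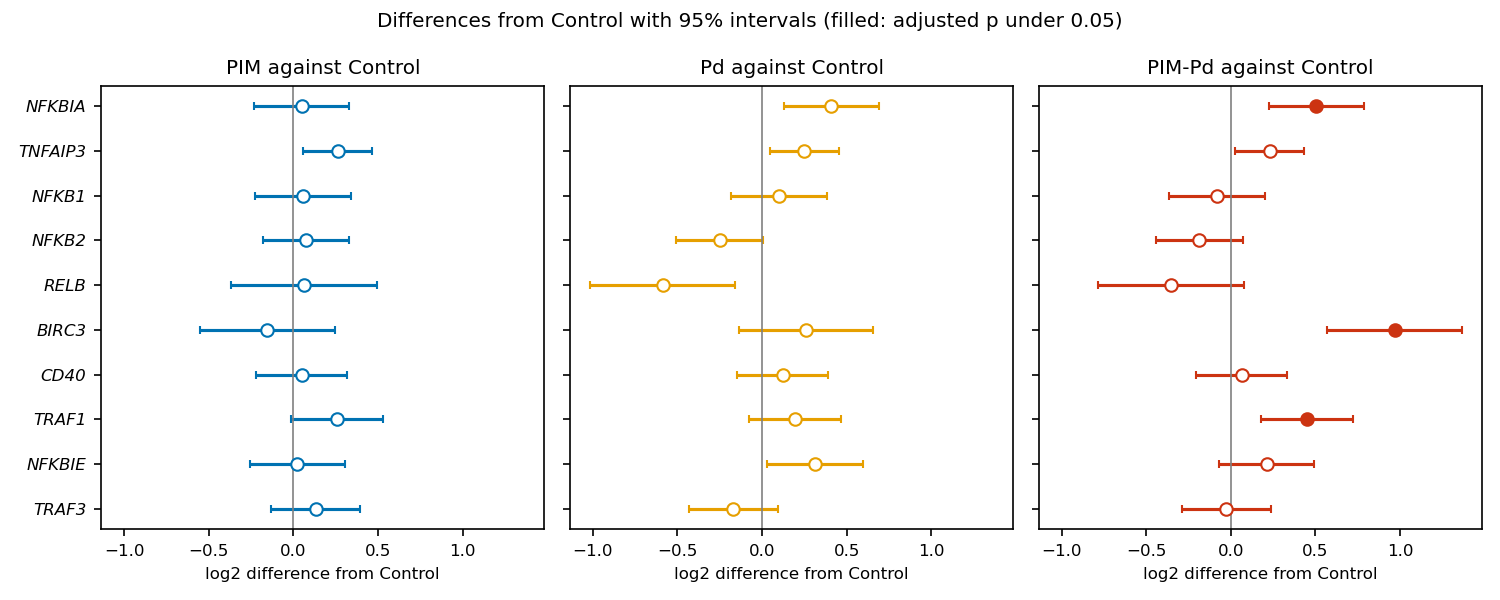
Log2 difference from Control (x axis) of each member (y axis) for PIM, Pd and PIM-Pd, with 95% intervals from limma, and filled points where the adjusted p over all genes was under 0.05. The filled points are BIRC3, NFKBIA and TRAF1 in PIM-Pd, and every other interval is drawn with an open point.

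TRAF1, an adaptor gene and a known NF-kB target, was called higher in PIM-Pd by 0.45 log2 units (SE 0.13, 1.37-fold, adjusted p = 0.0381). TRAF1 did not pass the F test over the 4 groups (adjusted p = 0.16). Its log2 values in replicates 1, 2 and 3 were 4.55, 4.50 and 4.61 in Control, 4.79, 4.83 and 4.82 in PIM, 4.61, 4.70 and 4.93 in Pd, and 5.14, 4.73 and 5.14 in PIM-Pd. Its Control mean of 4.55 was below the array medians, and with no detection call in the deposited values it is not known whether it exceeded background. Like TNFAIP3, it had every treated array above every Control array, with replicate 2 of PIM-Pd close to the PIM arrays. For TRAF1 the margin was very small in Pd, where the lowest array read 4.613 and the highest Control array 4.606. The differences in PIM (0.26, SE 0.13, adjusted p = 0.805) and in Pd (0.19, SE 0.13, adjusted p = 0.521) were not called. The PIM-Pd call was the least stable of the 3, kept in 9 of 21 alternatives (adjusted p 0.00816 to 0.274). It was lost with median centring (adjusted p = 0.0586) and without any 1 of Control replicates 1, 2 and 3 (0.0991, 0.118 and 0.0807), PIM-Pd replicates 1 and 3 (0.136 and 0.143) or Pd replicate 2 (0.052). It was also lost without replicate number 1, 2 or 3 in all groups (0.274, 0.0522 and 0.253), with trended robust variances (0.0668) and when only these 2 groups were fitted (0.0766).

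None of the 3 subunit genes was called in any comparison. RELB values in replicates 1, 2 and 3 were 6.39, 6.30 and 6.08 in Control, 6.34, 6.57 and 6.05 in PIM, 5.42, 5.75 and 5.83 in Pd, and 6.24, 5.38 and 6.08 in PIM-Pd. All 3 Pd arrays lay below all Control and PIM arrays. The share of all genes with this pattern was not counted, and 24.7% did not overlap between Pd and Control alone. PIM-Pd was split between 1 low array (replicate 2) and 2 arrays within the Control range. The Pd difference of -0.59 log2 units (SE 0.20, interval -1.02 to -0.16) was not called (adjusted p = 0.121). It passed when only Pd and Control were fitted (adjusted p = 0.0224) and when PIM-Pd replicate 2 was left out (0.04), with a range of 0.0224 to 0.582 over 21 alternatives. In PIM-Pd the RELB difference was -0.35 (SE 0.20, interval -0.78 to 0.08, adjusted p = 0.372).

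NFKB2 read 8.17, 8.28 and 8.43 in Control, 8.23, 8.44 and 8.43 in PIM, 7.97, 7.96 and 8.20 in Pd, and 7.96, 8.19 and 8.18 in PIM-Pd. Every Pd and PIM-Pd array lay below its same-numbered Control array, by 0.20, 0.32 and 0.23 and by 0.21, 0.10 and 0.25, although the groups overlapped. The same Control arrays enter both sets, and the share of all genes with this pattern was not counted. The mean differences of -0.25 in Pd and -0.19 in PIM-Pd (SE 0.12 each) were not called (adjusted p = 0.313 and 0.452). With the replicate number as a block in limma they were not called either (adjusted p = 0.202 and 0.334). NFKB1, the canonical precursor gene, differed by 0.06 in PIM, 0.10 in Pd and -0.08 in PIM-Pd (SE 0.13 each, adjusted p 0.816 to 0.979). Its lowest array was PIM-Pd replicate 3, at 6.87, and the other 11 lay between 7.17 and 7.48.

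**Figure D3:**
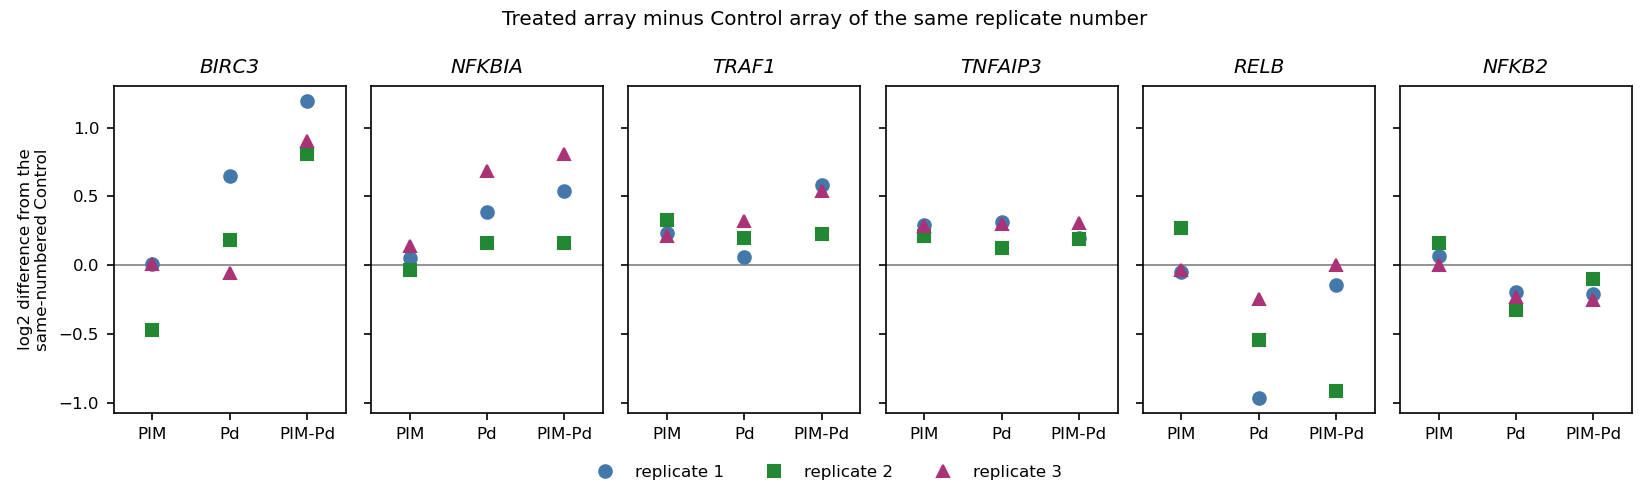
Log2 difference of each treated array from the Control array with the same replicate number (y axis), for PIM, Pd and PIM-Pd (x axis) and 6 members, with 1 symbol per replicate number. BIRC3 is above 0.8 in all 3 PIM-Pd arrays, NFKB2 is below 0 in all Pd and PIM-Pd arrays, and the PIM-Pd arrays of RELB run from -0.92 to 0.00.

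The receptor gene CD40 and the adaptor gene TRAF3 gave no called difference. CD40 arrays read 4.50 to 4.64 in Control, 4.54 to 4.69 in PIM, 4.44 to 4.90 in Pd and 4.46 to 4.70 in PIM-Pd, and its differences from Control were 0.05, 0.12 and 0.06 (SE 0.13 each). TRAF3 arrays read 7.35 to 7.77 in Control, 7.67 to 7.79 in PIM, 7.30 to 7.47 in Pd and 7.44 to 7.67 in PIM-Pd. The TRAF3 differences were 0.13, -0.17 and -0.03 (SE 0.12 each, adjusted p 0.578 to 0.946). Every treated group of both genes overlapped its Control. The deposited values carry no detection call, so whether low values such as those of CD40 and TRAF1 exceed background cannot be stated.

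In PIM, none of the 10 members was called against Control, and neither was any other gene (0% of 17710 by limma, and 1098 genes or 6.2% at an unadjusted p under 0.05, among them 1 member, TNFAIP3). The median difference of the members was 0.06 log2 units, and that of all genes was 0.01. The intervals of 9 members included 0. In Pd, again none of the 10 was called, in a comparison where 5.42% of all genes were. At an unadjusted p under 0.05 there were 4 members, NFKBIA, TNFAIP3 and NFKBIE above Control and RELB below it, and 16.8% of all genes were at that level. Groups did not overlap for 2 members in PIM (TNFAIP3 and TRAF1), against 11% of all genes. They did not overlap for 5 members in Pd (TRAF1 and these 4) and for 4 in PIM-Pd (BIRC3, NFKBIA, TNFAIP3 and TRAF1), against 24.7% of all genes in each of these 2 comparisons. All 3 comparisons share their Control arrays.

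**Figure D4:**
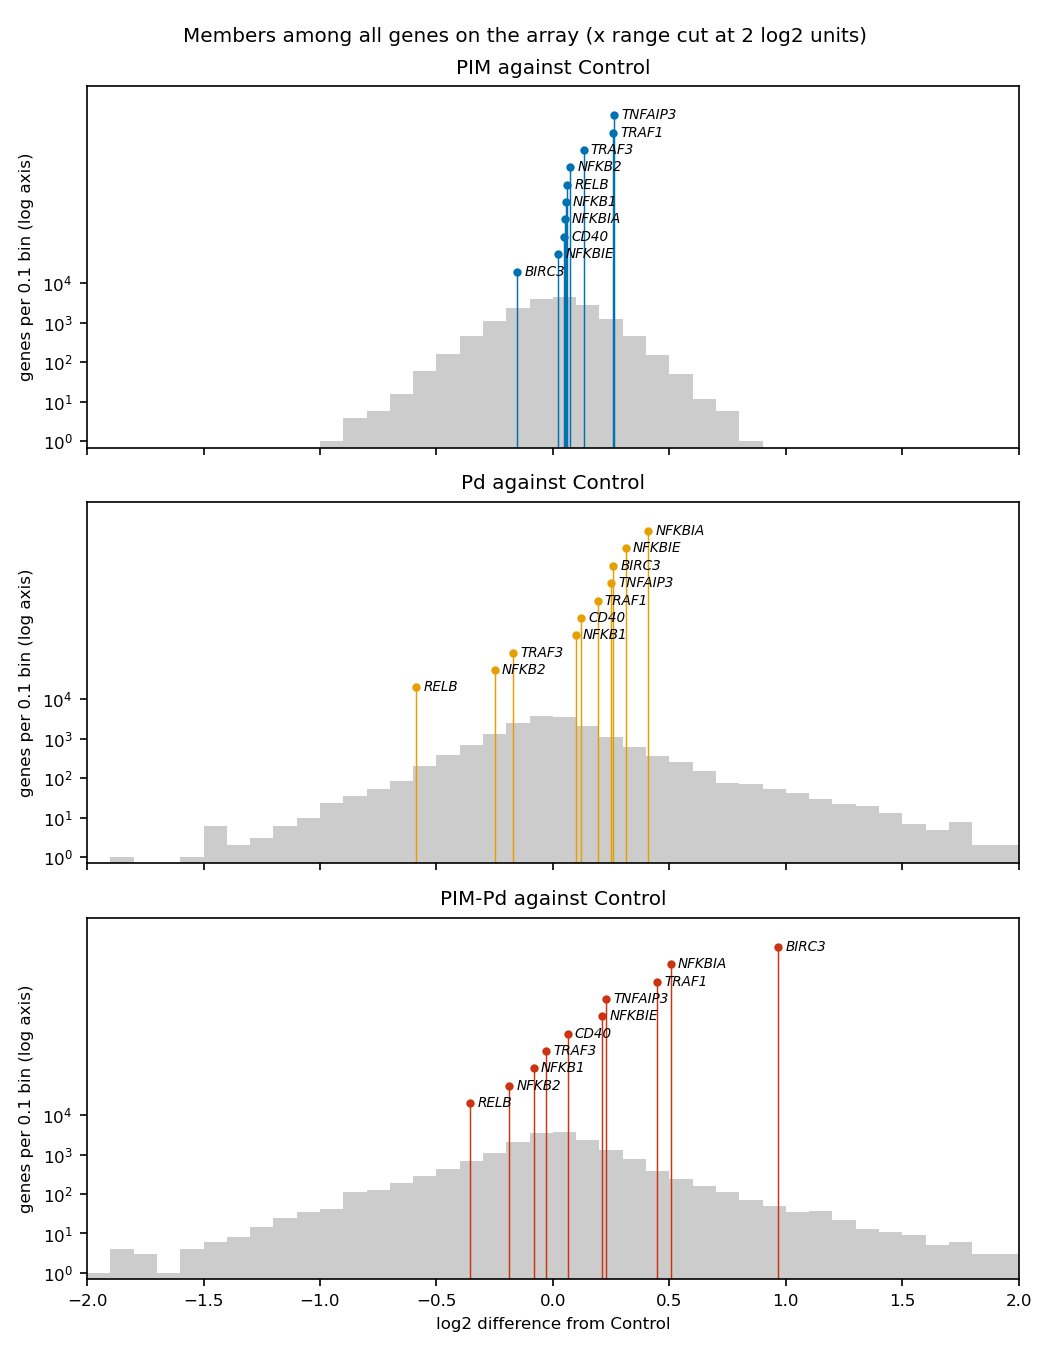
Number of genes per 0.1 log2 bin (y axis, log scale) by difference from Control (x axis) for PIM, Pd and PIM-Pd, with each member marked by a coloured stem whose height only separates the labels. The members sit inside the bulk of the genes in PIM, RELB is the lowest member in Pd at -0.59, and BIRC3 is the highest in PIM-Pd at 0.97.

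When PIM-Pd was set against Pd, none of the 10 members was called (1 member, BIRC3, at an unadjusted p under 0.05, where 8.57% of all genes were). Besides BIRC3, the differences ran from -0.18 (NFKB1) to 0.26 (TRAF1). Against PIM, the members other than BIRC3 ran from -0.42 (RELB) to 0.46 (NFKBIA), and NFKB2 was 0.26 lower in PIM-Pd, with no overlap between the groups (difference -0.26, SE 0.12, adjusted p = 0.281). At an unadjusted p under 0.05 there were 3 members (BIRC3, NFKBIA and NFKB2), and 17% of all genes were at that level. The groups did not overlap for the same 3 members, against 17.8% of all genes. None of the 10 members departed from the sum of the PIM and Pd differences beyond the threshold. BIRC3 was the 1 member at an unadjusted p under 0.05, where 5.83% of all genes were, and the other values ran from -0.28 (TNFAIP3) to 0.17 (RELB).

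The genes whose profile over the 12 arrays was most like BIRC3 and NFKBIA were HEXIM2, an inhibitor of the elongation factor P-TEFb (Pearson r = 0.949 with BIRC3), and YPEL5 (r = 0.928 with NFKBIA). The 12 points share 4 treatment groups, so these correlations describe the arrays and are not tested.

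The 5 lists of other pathway genes held 56 symbols, of which 9 could be matched to an identifier, all through the published tables of genes that the study itself called on these arrays. Neither how many of them were called nor their direction is therefore independent evidence, and no count over the other 47 can be given. Against Control, 3 of the 9 rose and 4 fell in PIM-Pd (9.44% of all genes called), 2 rose and 1 fell in Pd (5.42%), and none was called in PIM (0%), shares that the choice of genes fixed in large part. CFLAR, which encodes the caspase-8 inhibitor c-FLIP, rose by 1.02 log2 units in Pd and 1.59 in PIM-Pd (SE 0.11 each, adjusted p = 0.000103 and 1.55e-06). TNFRSF1B, the gene of TNF receptor 2, fell by 0.89 in Pd and by 1.30 in PIM-Pd (SE 0.19 each, adjusted p = 0.0135 and 0.000717).

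MALT1, a paracaspase of the antigen receptor route to NF-kB, rose in PIM-Pd by 0.68 (SE 0.15, adjusted p = 0.008) and NFKBIZ, the gene of a nuclear IkB protein, by 0.58 (SE 0.12, adjusted p = 0.00666). CHUK, which encodes the kinase IKKα, fell by 0.46 (SE 0.11, adjusted p = 0.0135), TRAF5 fell by 0.60 (SE 0.14, adjusted p = 0.0102) and WNT10A fell by 0.37 (SE 0.10, adjusted p = 0.0305). CD74, the MHC class II invariant chain, rose in Pd by 0.52 (SE 0.13, adjusted p = 0.0247) and gave 0.36 in PIM-Pd (adjusted p = 0.0961). TAX1BP1, a partner of A20 and the 1 gene of the 9 that was not called against Control (named after its values were seen), differed from Control by 0.44 in PIM-Pd (adjusted p = 0.0531), and PIM-Pd was higher than PIM by 0.53 (SE 0.13, adjusted p = 0.0302).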

How the data were processed

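Total RNA of 12 MM.1S cultures was hybridised to Clariom S human arrays. Per the labels and the study's methods, the authors normalised the arrays by RMA in oligo (1.44.0) under R (3.5.0) with a BrainArray custom gene definition, and the deposited table holds 1 log2 value per gene and array, with 17710 genes. Read depth does not apply to arrays, and their number limits the precision, along with the spread of each gene between arrays. The build behind the probes is not given in the sources used here.

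Group means were fitted with limma (3.58.1, R 4.3.3) to all 12 arrays, and p-values were adjusted by Benjamini-Hochberg over all genes, at 0.05. The study's methods used SAM, which was not run. The script was tested on simulated data. Alternatives were a replicate block, median centring, repeated quantile normalisation, leaving out the dimmest 25% of genes, trended robust variances, pairwise fits, a 2-fold rule, and leaving out arrays. The labels mark the replicate numbers as pairs, and of 18 same-number pairs 9 had deviations correlating over 0.1 (-0.10 to 0.30). Members, lists and rules were chosen with earlier results of these data known: all 10 members are named, and of other lists the called genes. For each member passing the F test, the gene with the closest profile is named. B cell, myeloid and stromal markers had no matching identifier and were not analysed here. Sequences are from RefSeq, GRCh38.p14.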

Additional observations from a re-analysis of the deposited data

How the results depend on the processing

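The 10 members in 6 comparisons were recomputed under 20 or 21 alternatives, the 2-fold rule not among them. Of the 1250 values, 1227 kept their outcome (called or not), 19 fell short of the threshold, 4 newly passed it and 0 reversed. Most of the 1227 were differences that were not called to begin with, so this tally says little about the calls. In PIM-Pd against Control, BIRC3, NFKBIA and TRAF1 kept their calls in 20, 15 and 9 of 21 alternatives. The BIRC3 call against PIM was kept in 21 of 21. The number of members called in PIM-Pd against Control was 3, and it was 1 when only those groups were fitted and 0 when a 2-fold difference was also required, while leaving out arrays gave 0 to 3. For Pd against Control the count of 0 became 1 (RELB) in the pairwise fit and ranged from 0 to 1 when arrays were left out. For PIM-Pd against PIM the count of 1 became 2 with the replicate block and ranged from 1 to 2 when arrays were left out, and the block changed no other call of a member. The number of members passing the F test was 2, became 1 after repeated quantile normalisation (NFKBIA lost, adjusted p = 0.0577) and ranged from 0 to 4 when arrays were left out. It was 1, with NFKBIA lost, in 9 of the 12 fits that left out 1 array, and 4 without PIM-Pd replicate 2. It was 0, with BIRC3 lost too, without replicate number 1 or 2 in all groups. Where arrays were left out, fewer samples entered the fit, but some members then newly passed. For RELB in Pd against Control, the difference stayed at -0.59 without PIM-Pd replicate 2, while its SE went from 0.20 to 0.15. The spread of each gene was estimated from all arrays in the fit, so the PIM-Pd arrays entered this SE. RELB had an SD of 0.46 in PIM-Pd, against 0.16 in Control and 0.22 in Pd. The cause of that spread, and of the other changes, was not tested.

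Over all genes, leaving out arrays gave 534 to 1771 calls for PIM-Pd against Control (1671 with all arrays), 266 to 1049 for Pd against Control (960), 305 to 953 for PIM-Pd against PIM (1003), 0 to 15 for PIM-Pd against Pd (14) and 0 to 3 for the departure from the sum (3). With the 2-fold rule the first 3 counts were 255, 191 and 173, and PIM-Pd against Pd gave 1. The pairwise fit gave 455 for PIM-Pd against PIM and 1 for PIM-Pd against Pd, which had 8 after repeated quantile normalisation and 26 with trended robust variances. The pairwise fit was not run for the departure from the sum, which needs all 4 groups.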
